A study of Bos taurus with 2 samples.

Results

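Mitochondrial ribosomal protein (MRP) genes were examined in mammary tissue of Chinese Holstein cows on 1 array labelled mastitis and 1 array labelled normal. Members were chosen by name alone: every gene probe whose name in the files, or whose current symbol in the RefSeq gene table (assembly ARS-UCD2.0), begins with MRPL or MRPS followed by a number. This gave 145 of the 43653 gene probes, for 77 of the 16959 named genes. Of these genes, 48 carry a large subunit name (MRPL) and 29 a small subunit name (MRPS). The RefSeq table lists 78 such genes, and the one without a probe found on the array was MRPL40. On 3 probes the files give an older name, ICT1 for MRPL58 or MRP63 for MRPL57. The files carry no probe sequence, so the genes are described by symbol.

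Mitochondria keep a small genome of their own and translate its messages on a separate ribosome. The RNA parts of this mitoribosome come from mitochondrial DNA, whereas every protein part is encoded in the nucleus, made in the cytosol and imported. The products of the mitoribosome are core subunits of the respiratory chain and of ATP synthase. Mammary epithelium in lactation is rich in mitochondria, since milk synthesis consumes much ATP.

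The cows were adult females in late lactation, and none had been given recombinant somatotropin. By the methods of the study, 3 cows had clinical mastitis and had received antibiotics, and 3 healthy cows had received none, so disease and antibiotic treatment cannot be told apart. No genetic alteration was made, and the cow or cows behind each array are not given. The study attributes the mastitis to gram-negative bacteria and names no species for these cows. The tissue was taken after slaughter and frozen. Both arrays, labelled with Cy3 alone, shared a slide and a scan. Because each condition has 1 array, differences could not be checked against replicates and no p-values were computed. In whole tissue, fewer cells of a type and less RNA per cell cannot be told apart.

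The milk synthesis genes stood far apart between the arrays. Their summed signal, from the brightest probe of each gene and with each array divided by its 75th percentile, was 216 for mastitis and at least 3926 for normal, where the probes of 5 of the genes held saturated pixels. All 14 of the measured genes were at least 2-fold lower on mastitis, and LALBA, for alpha-lactalbumin, was not well above background there. The corresponding sums for luminal epithelial markers were 140 and 198, but 137 and 145 without MUC1, and 6 of the 14 measured genes lay above 0 on the log2 scale. For fibroblast markers they were 121 and 78.2, but 54.0 and 47.8 without DCN, and COL1A1 and COL3A1 were among the 3 of 9 genes below 0. For macrophage markers the sums were 137 and 77.6, or 86.1 and 52.9 without C1QA, with 8 of 9 measured genes above 0. For neutrophil markers they were 19.3 and 52.4, or 9.15 and 21.2 without S100A12. Of the 8 measured neutrophil genes, 7 were at least 2-fold lower on mastitis. ITGAM was well above background on mastitis alone (14 and 8), and CXCR2 and MPO on neither array. The part of cell makeup in the MRP values was not tested.

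The MRP genes were among the well measured genes of the arrays. A probe counted as measured when its net signal (spot median minus the mean of the negative controls, in scanner units) lay more than 2.6 SD above the negative controls, which was above 7.10 for mastitis and 8.74 for normal. On both arrays together this held for 135 of the 145 MRP probes (93.1%), against 63.9% of all gene probes. Another 3 probes, for MRPL42, MRPS33 and MRPS9, passed on the mastitis array alone, and 7 passed on neither. Of the 12 probes designed on GenBank entries 5 were measured on both arrays, against 125 of 128 designed on RefSeq entries and 5 of 5 on Ensembl entries. Each of the 77 genes kept at least 1 measured probe, and no MRP probe was saturated.

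Before scaling, net signals were higher on the mastitis array for 128 of the 135 MRP probes. The median probe had a net signal of 330 on mastitis and 222 on normal, with ranges of 8 to 3419 and 15 to 2614. The 7 exceptions were 1 probe each of MRPL12, MRPL14, MRPL23, MRPL36, MRPL53, MRPL54 and MRPS25. The mastitis array was brighter as a whole, with a 75th percentile of 210 against 128, a ratio of 1.64. All ratios below were therefore taken after division by that percentile, and 34 of the 135 probes then lay above 0 on the log2 scale (mastitis minus normal). The counts of 128 and 34 were not made over all gene probes. By gene, 27.3% of the MRP genes and 38.6% of all measured genes lay above 0 after this division. Across the 135 probes, which share the same 2 arrays and are not replicates, the net signals had a Spearman correlation of 0.99.

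**Figure D1:**
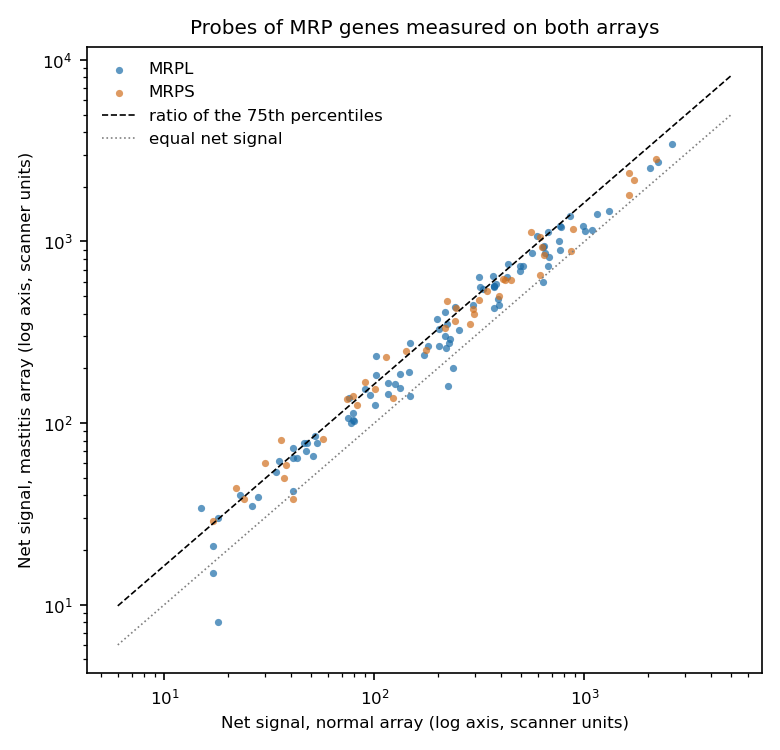
Net signal of the 135 MRP probes measured on both arrays, normal array on the x axis and mastitis array on the y axis, both in scanner units on log axes. The dotted line marks equal signal and the dashed line the ratio of the 75th percentiles (1.64), and most points lie between these lines or just above the dashed one.

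As a group, the MRP genes had a median log2 ratio close to that of all measured genes, and below that of genes of similar brightness. For each gene, the log2 ratios of all probes that passed on both arrays were averaged. The 77 genes had a median of -0.16 (1.12-fold lower on mastitis), and the 12245 genes measured on both arrays had a median of -0.15. Above the median of all genes lay 35 MRP genes (45.5%, where 50% of all genes lie by construction), and 41 (53.2%) lay below it. Above 0 lay 21 (27.3%), against 38.6% of all genes. The authors also deposited a table of log2 values whose rows carry the signal of the next probe in the list, and it was tried both as labelled and moved by 1 probe. Over the other ways of processing, without that table as labelled, the MRP median ran from -0.12 to 0.29 relative to that of all genes. The highest value came from keeping dim probes, when the median of all genes was -0.49. There, signals under the detection limits were raised to those limits, 7.10 and 8.74, before division by 210 and 128. A probe at both limits thus has a ratio below 0 by construction. With quantile normalization, with the deposited table moved by 1 probe and after removal of a trend with signal, 54 of the 77 MRP genes lay below the median of all genes. In the other direction, the number was 27 with normexp and 17 with dim probes kept, against 41 as reported. Normexp is a model-based background correction, used here with 50 added to every signal. The 17 is counted against the all-gene median of -0.49, which includes probes at the limits.

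The middle 50% of the MRP genes covered 0.37 on the log2 scale, against 0.71 for all measured genes, 0.39 for genes of mitochondrial import and matrix, 0.27 for the respiratory chain and 0.24 for cytosolic ribosomal proteins, so a narrow spread was not particular to them. A 2-fold rise was seen in none of the 77 genes, against a background of 2.26% of all measured genes, and a 2-fold fall in none, against 9.14%. At a smaller threshold of 1.5-fold, 6 genes (7.79%) were lower, against 21.5% of all genes, and none was higher, against 7.66%. The 6 were MRPS25, MRPL14, MRPL36, MRPL54, MRPS15 and MRPS34. Their number depends on the processing. It was 0 of 77 when the arrays are scaled on spike-in probes or not scaled, and 2 with scaling by the median. It was 1 with the normexp background correction, a model-based alternative to subtraction, with 50 added to every signal. The share of all genes fell too, to 12.5% with spike-in scaling, 5.23% without scaling, 10.9% with normexp and 15.4% with scaling by the median. Without scaling, 35 MRP genes exceeded 1.5-fold upward and 5 exceeded 2-fold, when 48.4% of all genes passed 1.5-fold upward. The share of all genes past 2-fold was not counted in that setting. The median was -0.17 for MRPL names and -0.12 for MRPS names, and the difference was not tested.

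**Figure D2:**
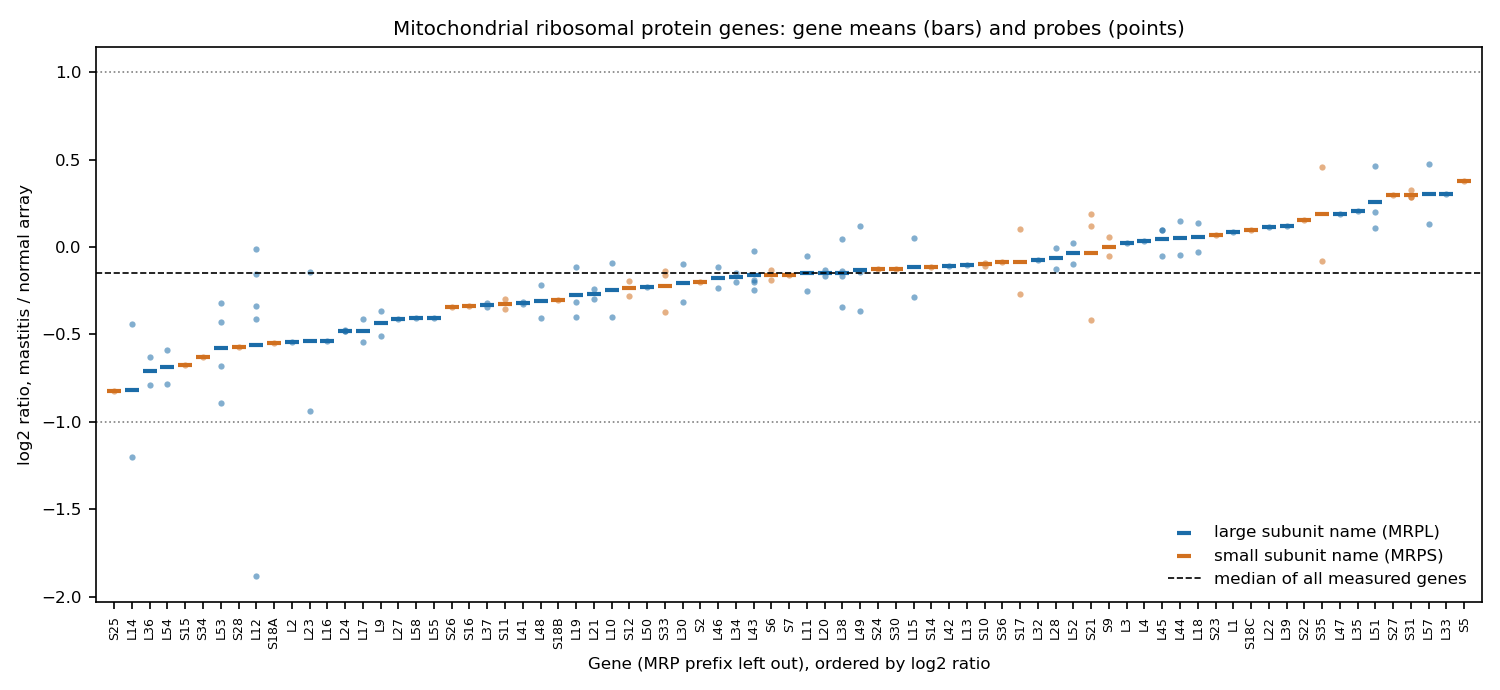
Log2 ratio (mastitis minus normal) of the 77 MRP genes in rank order, bars for gene means and points for single probes, blue for MRPL and orange for MRPS. A dashed line marks the median over the measured genes (-0.15), and dotted lines mark 2-fold. No gene mean crosses either dotted line, and single probes of MRPL12 and MRPL14 lie below the lower one.

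Names up to L36 and S21 follow the numbering of bacterial ribosomal proteins, and higher numbers were given mostly to proteins added in mitochondria. The 28 MRPL names with a bacterial number had a median of -0.19 and the 20 with a higher number -0.16. The 16 MRPS names with a bacterial number had a median of -0.16 and the 13 with a higher number -0.12. The sets follow the names alone, which for MRPS18A, MRPS30 and MRPS36 do not give the place of the protein.

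The gene with the highest ratio was MRPS5, whose product lies near the entry of the messenger channel of the small subunit. Its single probe had a net signal of 472 on mastitis and 221 on normal, a log2 ratio of 0.38 (1.30-fold higher). MRPL33, a small protein of the large subunit, had 639 and 315 (0.31). MRPS27, a PPR-repeat protein of the small subunit, had 1125 and 558 on its only measured probe (0.30).

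MRPS31 had the closest agreement among the high genes. Its 3 probes had net signals of 232 and 113, 60 and 30, and 44 and 22 (mastitis and normal in each pair), and the mean log2 ratio was 0.30 with an SD of 0.02 over probes. MRPL57, also known as MRP63, had the same mean of 0.30 from probes at 233 against 102 and 183 against 102. MRPL51 had 0.26 from 3 probes, at 373 against 198, 62 against 35 and 34 against 15. With the normexp correction MRPS31 came to 0.0018 and MRPL51 to -0.03. The 50 added to every signal there draws the ratios of dim probes toward a common value, and its part was not separated.

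The remaining genes among the 10 highest were MRPL35 (410 and 217, log2 ratio 0.20), MRPL47 (277 and 148, 0.19), MRPS35 and MRPS22 (135 and 74, 0.15). The 2 probes of MRPS35 did not point the same way, with 81 against 36 (0.46) and 59 against 38 (-0.08), around a mean of 0.19. The values of MRPL35, MRPL47, MRPS35 and MRPS22 are of the size of the SD between replicate spots (0.17). That SD comes from 41 probes with repeated spots, whereas each MRP probe has 1 spot. Probes of the same MRP gene differed more, with a pooled SD of 0.27, which is near the values of MRPL33, MRPS27, MRPS31, MRPL57 and MRPL51. By name the 10 highest were 5 MRPL and 5 MRPS genes, where all members are 48 and 29. Of the 10, 7 have a number above the bacterial range, against 33 of all 77.

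At the other end, MRPS25 had a log2 ratio of -0.82 (1.77-fold lower) from 1 dim probe with a net signal of 38 on mastitis and 41 on normal. MRPL14, a protein at the interface of the subunits that also binds the assembly factor MALSU1, had -0.82 as well (1.76-fold lower). Its probes differed, 275 against 227 (-0.44) and 159 against 223 (-1.20), an SD of 0.54. MRPL14 was the lowest MRP gene in several other settings, but with the brightest probe alone its value was -0.44.

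MRPL36, a small zinc-binding protein of the large subunit, was lower on both of its probes. They had 1155 on mastitis and 1087 on normal (-0.63), and 601 and 634 (-0.79), with a mean of -0.71 (1.63-fold lower). MRPS15, a small subunit protein that contacts the large subunit, had 891 and 866 (-0.67). MRPS34, a protein found only in mitochondrial ribosomes, had 651 and 614 (-0.63). In each of these bright probes the net signals of the arrays were nearly equal, and the ratio below 0 comes from the division by unequal percentiles. Without any scaling MRPL36 came to 0.0052, MRPL54 to 0.029, MRPS15 to 0.041 and MRPS34 to 0.084. Only MRPS25 and MRPL14 of the 77 genes then stayed below 0, when the median of all genes was 0.56. The share of all genes below 0 was not counted without scaling.

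The other members of the lowest 10 were MRPL53, MRPS28 (1804 and 1632, -0.57), MRPL12 and MRPS18A (137 and 122, -0.55). By name the lowest 10 also held 5 MRPL and 5 MRPS genes, although the product of MRPS18A sits in the large subunit. Their values ran from -0.82 to -0.55, against 0.15 to 0.38 for the 10 highest. In 15 of the 17 other ways of processing that were run, at least 8 of the lowest 10 genes stayed below the MRP median, which is fixed in the 4 that only change the scaling factor. The exceptions were the restriction to genes with at least 2 probes, where only 5 of the 10 were present and all 5 stayed, and the deposited table as labelled, where 5 of 10 did.

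The stalk of the large subunit recruits translation factors, and its genes were the site with the lowest values. MRPL11 and MRPL10, which form the stalk base, had log2 ratios of -0.15 and -0.25. MRPL12, the protein that contacts the factors, had -0.56, and MRPL53 and MRPL54, which are neighbours of the stalk in mitochondria, had -0.58 and -0.69. All 5 lay at or below the median of all genes, and the median of the site was -0.56, or -0.40 relative to that of all MRP genes.

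The low value of MRPL12 rests largely on 1 probe. The 5 probes had net signals on mastitis and normal of 100 and 77, 78 and 48, 78 and 53, 21 and 17, and 8 and 18. The last, whose signal of 8 is near the limit of 7.10 and which was designed on a GenBank entry, gave -1.88, and the others -0.34, -0.01, -0.16 and -0.41. The SD over probes was 0.76, the largest of any MRP gene, and with accession-matched probes alone the gene came to -0.09. MRPL12 was the only MRP gene whose probes spread over more than 1 on the log2 scale.

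MRPL53 had 4 probes, at 824 and 676 (-0.43), 104 and 79 (-0.32), 42 and 41 (-0.68) and 15 and 17 (-0.89). The ratio was lowest for the dimmest probe, as for MRPL12. MRPL54 had 734 and 672 (-0.59) and 141 and 148 (-0.78), with both probes low. The value of the stalk depended on which probes were used and how. Relative to all MRP genes its median was -0.080 when a net signal of 50 was required, -0.10 with probes matched by accession, -0.18 with the median over probes, -0.20 with the brightest probe and -0.22 with normexp.

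The proteins around the exit of the peptide tunnel fell apart into genes near or above 0 and genes clearly below it. Growing chains leave the mitoribosome here toward the inner membrane, to which MRPL45 holds the particle. MRPL47 had a log2 ratio of 0.19, MRPL39 0.12 (433 and 243), MRPL22 0.12 (649 and 365), MRPL44 0.05 and MRPL45 0.05. MRPL45 had 559 and 319 (0.10), 756 and 430 (0.10) and 351 and 222 (-0.05) on its 3 probes.

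The other genes of the tunnel exit were lower by a similar amount. MRPL24 had -0.48 with close agreement of its 3 probes, at 900 and 766, 259 and 219, and 155 and 132. MRPL17 had -0.48 from 2750 and 2233 (-0.41) and 1137 and 1010 (-0.54). MRPL23 had -0.54, but its RefSeq probe, at 732 and 492, gave -0.14 and a probe designed on a GenBank entry, at 202 and 236, gave -0.94.

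One of the MRPL17 probes is also listed under the RefSeq entry of an L17-like gene, LOC506989, so the signals of these genes cannot be told apart on it. The separate probes of LOC506989 had -0.49 (1645 and 1410) and -0.77 (128 and 133). The median of the 8 tunnel exit genes was 0.05, which is 0.21 above that of all MRP genes. It came to -0.31 relative to all MRP genes when only genes with at least 2 measured probes were kept.

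In the central protuberance, the crown of the large subunit, 6 genes were measured. MRPL18 had a log2 ratio of 0.06, from 1069 and 592 (0.14) and 1373 and 852 (-0.03). MRPL52 had -0.04, MRPL38 -0.15, MRPL46 -0.18 and MRPL48 -0.31. MRPL27, a protein next to the site of peptide bond formation, had -0.41 from 2528 and 2053. The median of the 6 was -0.16, equal to that of the MRP genes as a whole. MRPL46 and its neighbour in the RefSeq table, MRPS11, had -0.18 and -0.32.

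A few members with a particular role were picked after their values had been seen. MRPL58 (ICT1), a peptidyl-tRNA hydrolase built into the large subunit, had 1412 and 1142 (-0.41). MRPL2, near the site of peptide bond formation, had 1466 and 1303 (-0.54). MRPS12, in the decoding centre of the small subunit, had -0.24 from 422 and 294, and 50 and 37. MRPS36, also called KGD4 and a part of the 2-oxoglutarate dehydrogenase complex, had 531 and 343 (-0.08).

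The MRPS18 genes are paralogs, and MRPS18A, despite its name, takes a place in the large subunit. MRPS18A had -0.55, MRPS18B -0.30 (1165 and 877) and MRPS18C 0.10 (429 and 244), each on 1 probe. MRPS30, which also sits in the large subunit, had -0.12 (125 and 83). Probes of the same MRP gene differed with a pooled SD of 0.27, so the step from MRPS18A to MRPS18B is within what probes of 1 gene show.

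Agreement between probes sets what can be read from a single gene. Of the 41 MRP genes with at least 2 measured probes, 27 had probes within 0.25 of each other on the log2 scale, 6 had a range above 0.5 and 11 had probes on both sides of 0. The 6 were MRPL12, MRPL23, MRPL14, MRPS21, MRPL53 and MRPS35. MRPS21, for example, had 0.12 (141 and 79), 0.19 (168 and 90) and -0.42 (349 and 284). The pooled SD over probes was 0.27 for MRP genes and 0.45 for all genes, against an SD of 0.28 between the MRP genes themselves. The other 36 genes rest on 1 probe. Both SDs describe the probes and say nothing of the spread between cows.

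Other genes of the same pathway were taken from lists written from textbook knowledge. The 5 measured mitoribosomal proteins that bear another name had a median of 0.05. CHCHD1 had a log2 ratio of 0.38 (307 and 144), PTCD3 0.23 (545 and 258), DAP3, which encodes small subunit protein S29, 0.05, AURKAIP1 -0.15 and GADD45GIP1 -0.53. None of the 5 passed 1.5-fold either way. Their range, -0.53 to 0.38, lay inside that of the MRP genes.

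The 11 measured mitochondrial translation factors had a median of -0.13, and 1 gene passed 1.5-fold upward and 2 passed it downward. The highest were GUF1, a GTPase related to bacterial LepA (0.63), and GFM2, which acts in ribosome recycling (0.54). The lowest were MRRF, the recycling factor (-0.89), and MTIF3, an initiation factor (-0.95). Their SDs over probes were 0.36 and 0.49, and that of GUF1 was 0.39. GFM2 and MRRF, which act together in recycling, thus lay at opposite ends of the list.

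The 23 measured assembly factors of the mitoribosome had a median of -0.05 and 1 gene at least 1.5-fold lower. The highest were MTERF4 (0.42) and the helicase DHX30 (0.33), and the lowest were MPV17L2 (-0.57) and the endoribonuclease YBEY (-1.21, 553 and 781 on 1 probe). The 18 measured mitochondrial aminoacyl-tRNA synthetases had a median of -0.17, with none at least 1.5-fold higher and 4 lower. HARS2 (0.53) and AARS2 (0.29) were highest and TARS2 (-0.84) and VARS2 (-1.95) lowest. The probes of TARS2 differed widely, with an SD of 1.02. The single probe of VARS2 had a net signal of 47 on mastitis and 111 on normal, which is 3.87-fold lower.

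Genes that copy and transcribe mitochondrial DNA or act on its RNA had a median of 0.06 over 14 measured genes, with none past 1.5-fold. TWNK, the replicative helicase (0.51), and TEFM, the elongation factor (0.42), were highest, and MTERF2 (-0.30) and the RNA polymerase POLRMT (-0.42) lowest. Among 10 measured regulators of mitochondrial biogenesis, median -0.11, PPARGC1A, the coactivator PGC-1 alpha, had 0.96 from a dim probe (32 and 10) and GABPB1 0.39, while NRF1 had -0.82 (27 and 29) and the nuclear receptor ESRRA -1.08. The 38 genes listed under import and matrix, which include membrane proteins, had a median of -0.17 with none at least 1.5-fold higher and 4 lower. IDH3A (0.50) and TIMM10 (0.38) were highest, and prohibitin PHB1 (-0.95) and the ADP/ATP carrier SLC25A5 (-1.09) lowest.

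**Figure D3:**
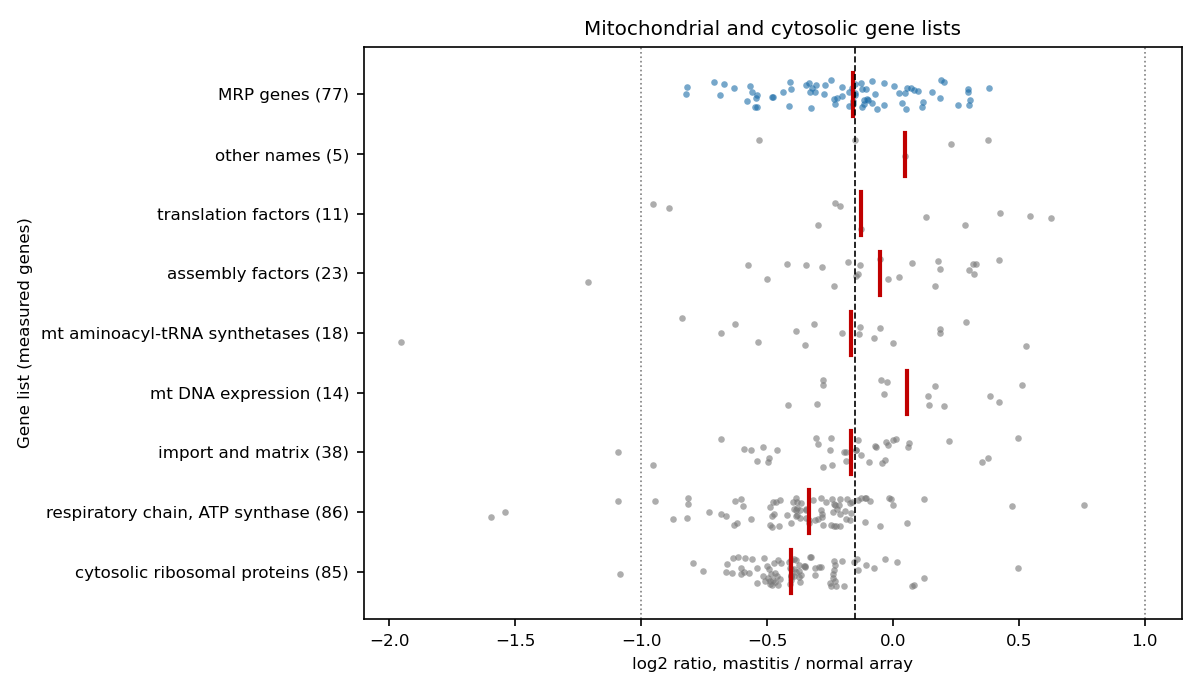
Log2 ratio (mastitis minus normal) of the measured genes of 9 lists, 1 point per gene with vertical scatter only for legibility, red bars at list medians, a dashed line at the median of all measured genes (-0.15) and dotted lines at 2-fold. The MRP genes (top row) centre on the dashed line, and the respiratory chain and the cytosolic ribosomal proteins (lowest rows) lie to its left.

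The respiratory chain and ATP synthase, whose core the mitoribosome makes, are otherwise encoded in the nucleus, and these 86 nuclear genes had a median of -0.33. Of them 72 (83.7%) lay below the median of all genes and 16 (18.6%) were at least 1.5-fold lower, which is under the 21.5% of all genes. COX7A1 (0.76) and NDUFA4L2 (0.47) were highest and COX7C (-1.54) and NDUFS8 (-1.60) lowest, and the SD over probes was 1.77 for COX7C and 1.56 for NDUFS8. The MRP median was 0.17 above that of the respiratory chain. Leaving out the deposited table as labelled, it was above it in every other way of processing, by 0.062 to 0.20. The 4 ways that only change the scaling factor cannot alter this difference.

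The proteins of the cytosolic ribosome had a median of -0.40 over 85 genes, with 75 (88.2%) below the median of all genes and 12 (14.1%) at least 1.5-fold lower, again under the 21.5% of all genes. RPL26L1 (0.50) and RPS24 (0.12) were highest and RPS26 (-0.80) and RPL7A (-1.08) lowest, and the SD over probes was 0.54 for RPS26 and 0.73 for RPL7A. The MRP median was 0.25 above theirs. This order does not hold across the ways of processing: the difference was -0.20 with quantile normalization, -0.21 with the deposited table moved by 1 probe and -0.14 after a trend with signal was removed, a step added after the data were seen. With normexp it was 0.10.

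**Figure D4:**
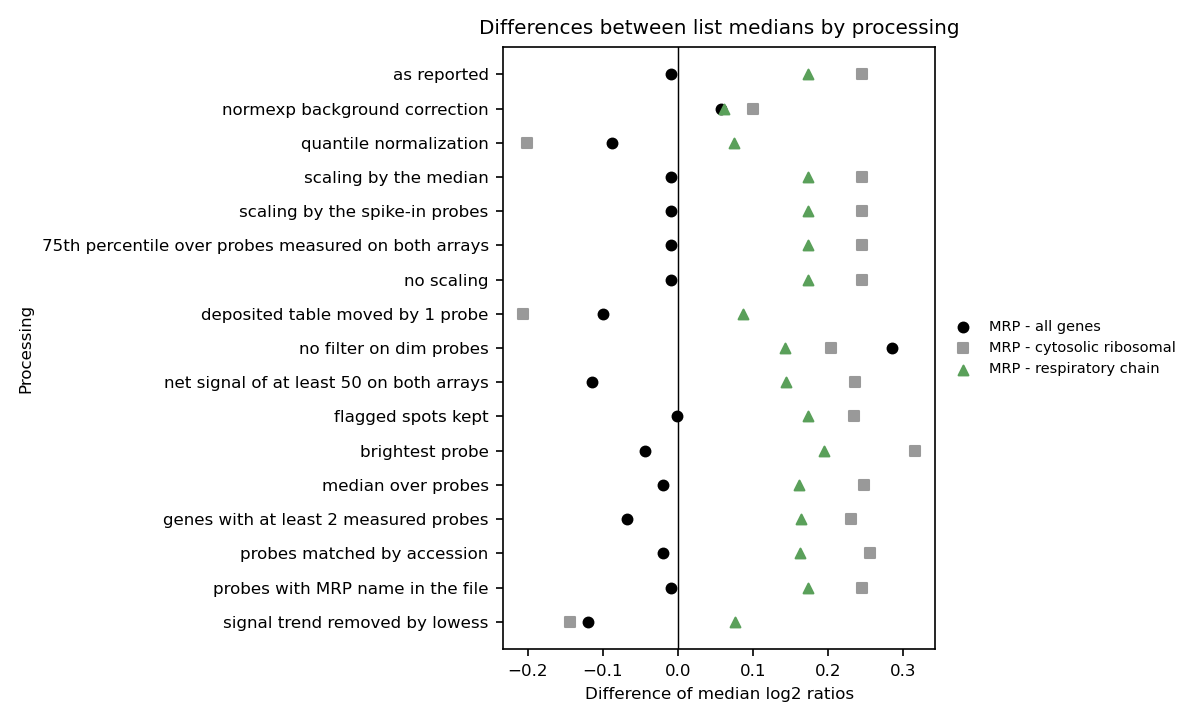
Difference between the median log2 ratio of the MRP genes and that of all genes (circles), of cytosolic ribosomal proteins (squares) and of the respiratory chain (triangles) for each way of processing, without the deposited table as labelled. The squares cross to the left of 0 in 3 rows, and the triangles stay to the right of it.

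Brightness differs between these lists and moves with the ratio. Of the cytosolic ribosomal proteins 80 of 85 lay in the brightest 10% of the measured genes, of the respiratory chain 52 of 86 and of the MRP genes 18 of 77. The median log2 ratio of all genes was -0.57 in the dimmest 10% of genes, between -0.03 and -0.06 in bins 5 to 9 of 10, and -0.28 in the brightest 10%. In bins 6 to 10, which hold 64 of the 77 MRP genes, the MRP medians were -0.16, -0.13, -0.18, -0.15 and -0.34, each below that of all genes in the same bin (-0.05, -0.04, -0.03, -0.06 and -0.28). In the dimmer bins, with 1 to 6 MRP genes each, the order varied. For the respiratory chain the medians were -0.32 in bin 10 (52 genes), -0.34 in bin 9 (15) and -0.24 in bin 8 (10). The MRP median was thus slightly below that of the respiratory chain in the brightest 10% and above it in bins 8 and 9. The other bins hold at most 3 respiratory chain genes each, and the order varied there. Among the MRP genes the Spearman correlation of ratio and signal was -0.25, and over all genes 0.13, both across genes of the same 2 arrays. The part of brightness in the differences between lists was not tested beyond the settings above.

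**Figure D5:**
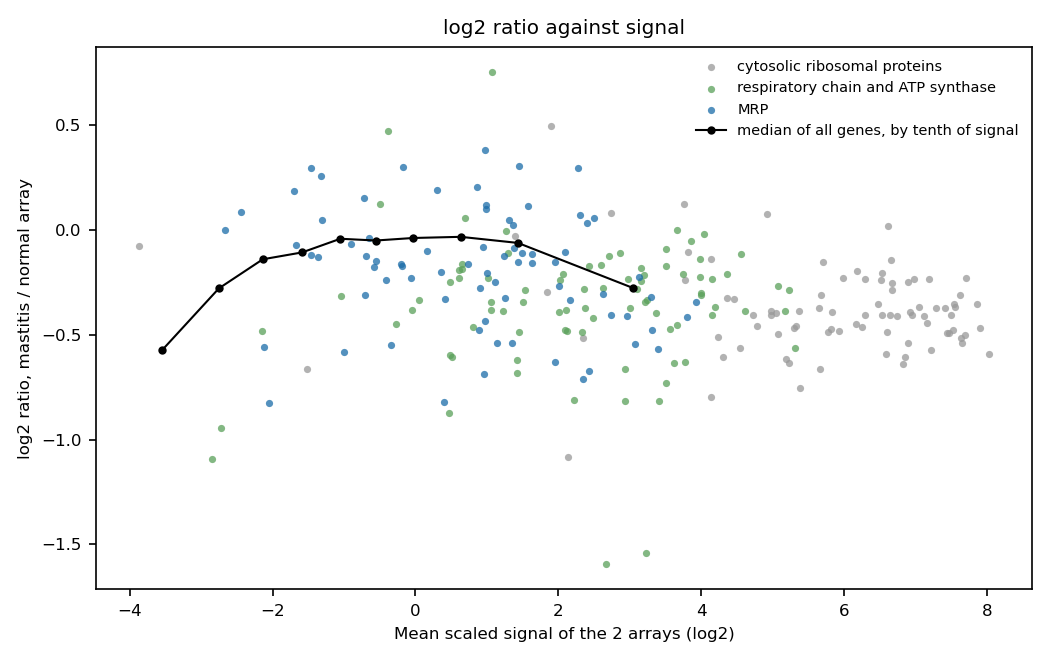
Log2 ratio (mastitis minus normal) against the mean log2 scaled signal of the arrays for MRP genes (blue), respiratory chain genes (green) and cytosolic ribosomal proteins (grey), with the median of all measured genes in 10 bins of signal (black). The grey points sit mostly at the bright end, where the black line falls to -0.28, and the blue points spread over most of the range.

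The order of the MRP genes depended less on processing than their level. Across all ways of processing except the deposited table as labelled, the Spearman correlation of the MRP values with those given here was at least 0.87, which is partly fixed because they come from the same signals. The sign of a single value is less firm. The median of the MRP genes was -0.16 as reported, 0.11 with scaling on the spike-in probes and 0.56 without scaling, and the median of all genes moved with it, to 0.11 and 0.56.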

How the data were processed

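Each array was 1-colour Cy3. Per the file headers, the authors deposited for every spot an intensity at 532 nm, read with GenePix Pro 6.1 from an Agilent array of design 023647, minus the mean intensity of the negative controls and unscaled. A flag, a score of signal to noise and the percent of pixels at saturation were also deposited for each spot. Sources disagree on the platform and extraction: Agilent Feature Extraction (submitters' processing notes) and a miRNeasy kit (labels), or an Affymetrix chip and Trizol (methods). The deposited log2 table (medians 4.34 and 4.29, method not given in the sources used here) had a Spearman correlation with the mastitis scanner signal of 0.10 for the probe of the same row and of 1.00 for the next probe, and served as an alternative only. The design, written for Feature Extraction files, was carried over to the nearest GenePix quantities.

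Control spots (153 negative controls among 45220 spots) were left out and spots of a probe averaged. Detection used 2.6 SD over the negative controls in spots that were found (70.2% of probes on mastitis and 67.0% on normal). Scaling divided each array by its 75th percentile. Probes were named by RefSeq accession (26743), symbol (5971) or synonym (141), 1662 kept the name in the file and 9136 had no gene. Of the MRP probes, 127 were matched by accession and 18 by symbol. Named genes are the 10 highest and 10 lowest MRP genes, those of the stalk, tunnel exit and central protuberance, those whose probes spread over more than 1, and the 2 highest and 2 lowest of each other list. Other genes named (MRPL58, MRPL2, MRPS12, MRPS36, the MRPS18 genes, MRPS30, MRPS21, MRPS11, and MRPL42, MRPS33 and MRPS9 for their failed probes) were chosen after their values were seen. A planned naming of the MRP genes with the highest level was not used, since levels of different probes are not comparable. The members and lists were chosen with earlier results of these data known. Precision between cows cannot be estimated from 1 array per condition, and no test was possible. The scaling, averaging and fold steps were checked on simulated data with known changes, which took detection and gene names from the real arrays. The simulated noise was that between replicate spots (SD 0.17), below that over probes of 1 gene (0.45), and held no spread between cows. Tools were pandas 2.3.3, numpy 2.4.6, statsmodels 0.14.6, scipy 1.17.1 and matplotlib 3.10.9 in Python 3.11.15, and limma 3.58.1 in R 4.3.3 for normexp (offset 50).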

Additional observations from a re-analysis of the deposited data

How the results depend on the processing

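No paired analysis was possible because each condition has 1 array, and for the same reason no array could be left out. Alternatives were run in 17 settings, 1 of which, the removal of a trend with signal by lowess, was chosen after seeing the data. Of the values answering a comparison, 211 moved by less than the SD between replicate spots (counts: by less than 1.5 times) and 44 moved more. The 211 include differences between medians in settings that only change the scaling factor, which cannot move. The SD used is 0.17, so a move as large as the MRP median itself (-0.16) counts among the 211. The number of MRP genes at least 1.5-fold lower, 6 as reported, was 1 with normexp, 2 with scaling by the median, 0 with spike-in scaling, 0 without scaling and 3 among genes with at least 2 probes. In the same order, the shares of all genes were 10.9%, 15.4%, 12.5%, 5.23% and 16.0%. With spike-in scaling 1 MRP gene was at least 1.5-fold higher, against 17.9% of all genes. The medians were then 0.11 for MRP, 0.10 for MRPL, 0.14 for MRPS, -0.14 for cytosolic ribosomal proteins, -0.069 for the respiratory chain and 0.13 for the mitochondrial translation lists. Without scaling these medians were 0.56, 0.55, 0.59, 0.31, 0.38 and 0.58. In that setting 35 MRP genes were at least 1.5-fold higher, against 48.4% of all genes. At 2-fold 5 were higher, and the share of all genes was not counted. MRPL36 (0.0052), MRPL54 (0.029), MRPS15 (0.041) and MRPS34 (0.084) changed sign, as did MRPL53, MRPS28, MRPL12 and MRPS18A (0.13 to 0.17).

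Quantile normalization gave medians of 0.12 for cytosolic ribosomal proteins and -0.16 for the respiratory chain, and the MRP median lay at -0.20 relative to the former. The deposited table moved by 1 probe gave 0.12 and -0.21 for the cytosolic list and the difference, and lowess -0.013 and -0.14. The deposited table as labelled, whose rows do not match the scanner files, gave 13 MRP genes at least 1.5-fold lower and 13 higher (of all genes 18.5% and 22.3%). At 2-fold it gave 5 and 5, and the shares of all genes were not counted. Its medians were 0.015 for MRPL, 0.0425 for cytosolic ribosomal proteins and -0.0425 for the respiratory chain, with a difference of -0.0425 between MRP and cytosolic ribosomal proteins. There MRPS25 (0.02), MRPL14 (0.14), MRPL54 (0.28) and MRPS34 (0.70) changed sign among the lowest genes, and 7 of the 10 highest did so too, with MRPL33 (-1.14) and MRPL35 (-0.79) the lowest of them. Without a filter on dim probes the MRP median lay 0.29 above that of all genes. The latter then included probes raised to the detection limits on both arrays, whose ratio lies below 0 by construction. The stalk median relative to the MRP median, -0.40 as reported, was -0.22 with normexp, -0.22 with lowess, -0.20 with the brightest probe, -0.18 with the median over probes, -0.10 with probes matched by accession, -0.080 with a net signal of at least 50 and 0 in the deposited table as labelled. That of the tunnel exit, 0.21 as reported, was -0.31 among genes with at least 2 measured probes. The cause of these moves was not tested. By construction, dim probes that were kept were raised to the limits, and normexp added 50 to every signal. The settings with at least 2 probes, with accession matches and with a net signal of at least 50 keep fewer probes.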
